A study of Mus musculus with 24 samples.

Results

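The genes described here are 9 that glucocorticoids are known to induce in many tissues: Zbtb16, Tsc22d3, Fkbp5, Mt1, Mt2, Ddit4, Cdkn1a, Angptl4 and Lcn2. They were found by gene symbol in the deposited table of array signals from whole mouse adrenal glands, and were followed over 6 groups of 4 arrays as a possible readout of corticosterone acting inside the gland. All 9 are among the 21957 genes of the table, each with 1 probe set, and all 9 are among the 14411 genes bright enough to test. A gene was tested if its log2 signal passed 5 in at least 4 arrays; the 9 passed 5 in every array. No corticosterone level was used, so the values are those of the transcripts alone.

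The mice were 7 months old, on a mixed sv129-C57Bl/6 background. The knockout (KO) groups were females, intact males and males gonadectomised during the last 2 months (GDX), all Prkar1a fl/fl with 1 Cre allele in the Cyp11b2 locus and mTmG/mTmG, a reporter. Prkar1a encodes a regulatory subunit that keeps protein kinase A, the kinase activated by cAMP, inactive. Cyp11b2 encodes aldosterone synthase, so the Cre is driven in the zona glomerulosa and in the cells that descend from it, and not in every cell of the gland. The control (WT) females carried Prkar1a fl/+ with Cre and mTmG/mTmG, and so had 1 floxed allele in Cre-positive cells. The WT intact males were Prkar1a fl/fl without Cre. The WT GDX males differed among themselves: array 1 was Prkar1a+/+ without Cre, arrays 2 and 3 were Prkar1a+/+ with Cre, and array 4 was Prkar1a fl/+ with Cre. WT GDX array 2 carried mTmG/+ and all other mice mTmG/mTmG. Cre status and genotype of the controls therefore moved with sex and with gonadectomy, and the part of these alleles in any comparison between control groups cannot be told apart from that of sex or gonads. The comparisons of KO with WT carry these alleles too. In females both groups had Cre, in intact males the KO group alone, and in GDX males the WT arrays were mixed. Differences in the KO change between these comparisons therefore cannot be told apart from differences between the controls.

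The whole series gave array medians of 5.2 to 5.29 on the log2 scale and within-group correlations between arrays of 0.989 to 0.995 (Pearson's r over all probe sets). Markers of the gland were bright in all 24 arrays: Th, tyrosine hydroxylase of the medulla, lay at 9.75 to 11.36 and the glomerulosa gene Dab2 at 10.09 to 11.31. The targeted gene was measured in every array. Prkar1a stood at 7.30, 7.00, 7.35 and 6.67 in KO females, against 8.43, 8.53, 8.54 and 8.52 in WT females. It stood at 6.89, 8.08, 8.47 and 8.13 in KO intact males, against 8.89, 8.72, 8.75 and 8.91 in WT intact males. It stood at 7.99, 7.66, 7.30 and 7.45 in KO GDX males, against 8.94, 8.92, 8.73 and 8.59 in WT GDX males. Every KO array lay under every WT array of its pair, and 3 of the 4 KO intact male arrays lay close to their controls. The fall of Prkar1a passed the test in females (log2 change -1.43 ± 0.23, limma adjusted p = 5.83e-05) and GDX males (-1.19 ± 0.23, adjusted p = 0.00477). In intact males it did not (-0.92 ± 0.23, adjusted p = 0.16).

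As background, corticosterone is the main glucocorticoid of the mouse and is made in the zona fasciculata of the adrenal cortex under the pituitary hormone ACTH, whose signal runs through cAMP and protein kinase A. It binds the glucocorticoid receptor, encoded by Nr3c1, which moves to the nucleus and activates genes that carry its response elements, often far from the gene's start. Fkbp5 and Tsc22d3 are among the most widely used indicators of receptor activity, and Zbtb16 is strongly induced by glucocorticoids in many cell types. None of these genes answers to this receptor alone. Among the other 6, metallothioneins answer to zinc and oxidants, Ddit4 to hypoxia and amino acid shortage, and Cdkn1a to p53. Angptl4 answers to PPAR receptors, and Lcn2 to inflammatory signals. The part of other signals, such as sex hormones, in Fkbp5, Tsc22d3 and Zbtb16 was not tested.

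Promoter sequence was available for 7 of the 9 genes, as 10 windows of 300 bases that run from 250 bases before an annotated start to 50 after it; Zbtb16 and Angptl4 are named only. The sequences are RefSeq's, in the build GRCm38.p6. The windows shown belong to the neighbouring metallothionein genes, which moved together, to Ddit4, and to the Tsc22d3 start that carries a receptor hexamer. They read 5′ to 3′ along the strand of the gene. Capitals mark the hexamer AGAACA of the glucocorticoid receptor element, TGCGCNC and TGCACNC of the metal response element, and TGACG of the cAMP response element, on either strand.
Mt1, chr8:94178839-94179138, plus strand: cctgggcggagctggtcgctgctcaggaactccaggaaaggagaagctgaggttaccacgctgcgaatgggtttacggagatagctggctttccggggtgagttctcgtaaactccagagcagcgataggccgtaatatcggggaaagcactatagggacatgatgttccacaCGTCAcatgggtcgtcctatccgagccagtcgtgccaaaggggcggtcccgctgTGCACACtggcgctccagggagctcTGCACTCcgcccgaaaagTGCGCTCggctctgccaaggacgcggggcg
Mt2, chr8:94172368-94172667, plus strand: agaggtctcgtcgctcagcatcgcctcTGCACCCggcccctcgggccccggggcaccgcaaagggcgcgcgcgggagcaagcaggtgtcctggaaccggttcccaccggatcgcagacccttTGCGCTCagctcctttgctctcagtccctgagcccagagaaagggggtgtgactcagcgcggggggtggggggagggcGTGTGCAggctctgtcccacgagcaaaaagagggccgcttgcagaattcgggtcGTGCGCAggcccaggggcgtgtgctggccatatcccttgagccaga
Ddit4, chr10:59951721-59952020, minus strand: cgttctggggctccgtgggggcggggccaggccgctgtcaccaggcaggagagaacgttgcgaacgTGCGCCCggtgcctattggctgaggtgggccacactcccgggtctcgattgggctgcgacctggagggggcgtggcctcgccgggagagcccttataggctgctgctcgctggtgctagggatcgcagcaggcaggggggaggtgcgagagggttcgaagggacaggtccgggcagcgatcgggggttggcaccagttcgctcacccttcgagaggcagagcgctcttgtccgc
Tsc22d3, chrX:140600473-140600772, minus strand: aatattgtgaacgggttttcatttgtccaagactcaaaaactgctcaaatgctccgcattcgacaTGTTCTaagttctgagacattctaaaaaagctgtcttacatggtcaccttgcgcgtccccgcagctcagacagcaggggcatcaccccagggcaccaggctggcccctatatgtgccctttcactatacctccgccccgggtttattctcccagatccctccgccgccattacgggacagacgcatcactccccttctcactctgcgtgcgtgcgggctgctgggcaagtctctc
The metal motifs were most numerous in the metallothionein windows: Mt1 held 1 match to TGCGCNC and 2 to TGCACNC, and Mt2 held 2 of each. TGCGCNC was found in 15.4% of all 32851 windows and TGCACNC in 12.6%. Ddit4 held 1 match to TGCGCNC, and no window of the other genes held either metal motif. The hexamer AGAACA lay in 1 of the 10 windows, against 19% of all windows. That was the window of the Tsc22d3 start shown, and those of its other starts (chrX:140542668 and chrX:140548571) did not hold it. The full receptor palindrome, the hexamer and its reverse complement with a gap of 3 bases, was in 0 of the 10, and in 3 windows overall (0.00913%). The motif TGACG was in 1 window each of Mt1 and Tsc22d3 (another start than the one shown), against 20.8% of all windows, and the full TGACGTCA in 0 of the 10, against 1.79%. These are matches of letters and not sites.

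Loss of Prkar1a went with higher signals of most of the 9 genes, and the genes that passed the test differed between females, intact males and GDX males. In KO females 7 of the 9 rose against WT females and 0 fell; at the same threshold (limma, Benjamini-Hochberg adjusted p under 0.05) 13.9% of all genes tested were called higher and 18.7% lower, 32.6% in all. In KO GDX males 3 of the 9 rose, where the test called 4.23% of all genes, 2.26% higher and 1.97% lower. In KO intact males 1 of the 9 rose, where it called 0.111% of all genes, 0.0694% higher and 0.0416% lower. The median change of the 9 was 0.6 in females, 0.53 in GDX males and 0.32 in intact males on the log2 scale, beside -0.02, -0.01 and -0.01 for all genes tested. The 9 genes were chosen with earlier results of these arrays known. Their counts and medians beside those of all genes, here and below, are therefore descriptions and not tests of the set. The 3 comparisons share no array. With the 2 groups of a comparison fitted alone the counts were 6 in females, 1 in GDX males and 0 in intact males. The shares of all genes above are those of the fit over all arrays, and those of the smaller fits are not given here.

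**Figure D1:**
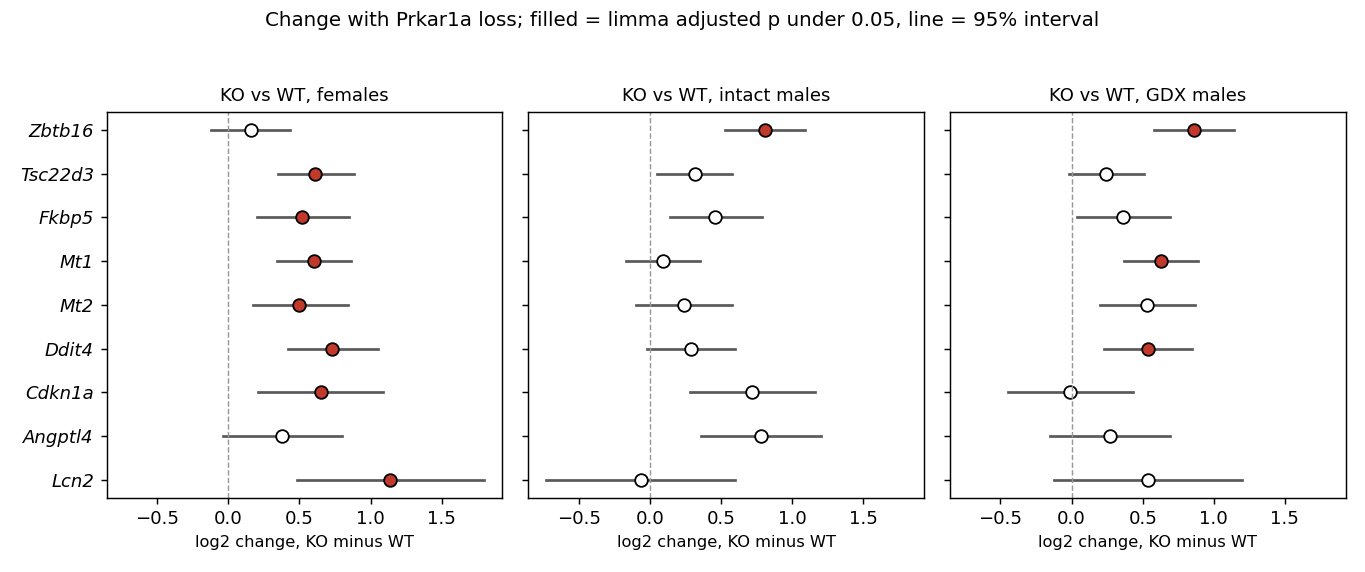
Log2 change of each gene, KO minus WT, in females, intact males and GDX males (limma, 4 arrays against 4 in each; horizontal axis in log2 units, shared by the panels; dashed line at 0). Filled points passed an adjusted p of 0.05 and lines are 95% intervals; 7 points are filled in females, 1 (Zbtb16) in intact males and 3 (Zbtb16, Mt1, Ddit4) in GDX males.

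Of the 27 changes (9 genes in 3 comparisons), 25 were above 0, beside 46.6% of all genes for females, 46% for intact males and 46.8% for GDX males. The 2 below 0 were Lcn2 in intact males (-0.06) and Cdkn1a in GDX males (-0.01). By gene, 7 of the 9 were above 0 in all 3 comparisons, as were 16.9% of all genes tested. Without overlap between the arrays, 5 of the 9 lay above their controls in females (14% of all genes), 4 in GDX males (4.59%) and 2 in intact males (2.28%). At an unadjusted p under 0.05 the counts of higher genes were 5 of 9 in intact males, against 4.18% of all genes, and 5 of 9 in GDX males, against 8.94%. As these are arrays of whole glands, fewer cells of a type and less RNA per cell cannot be told apart in any of these values.

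**Figure D2:**
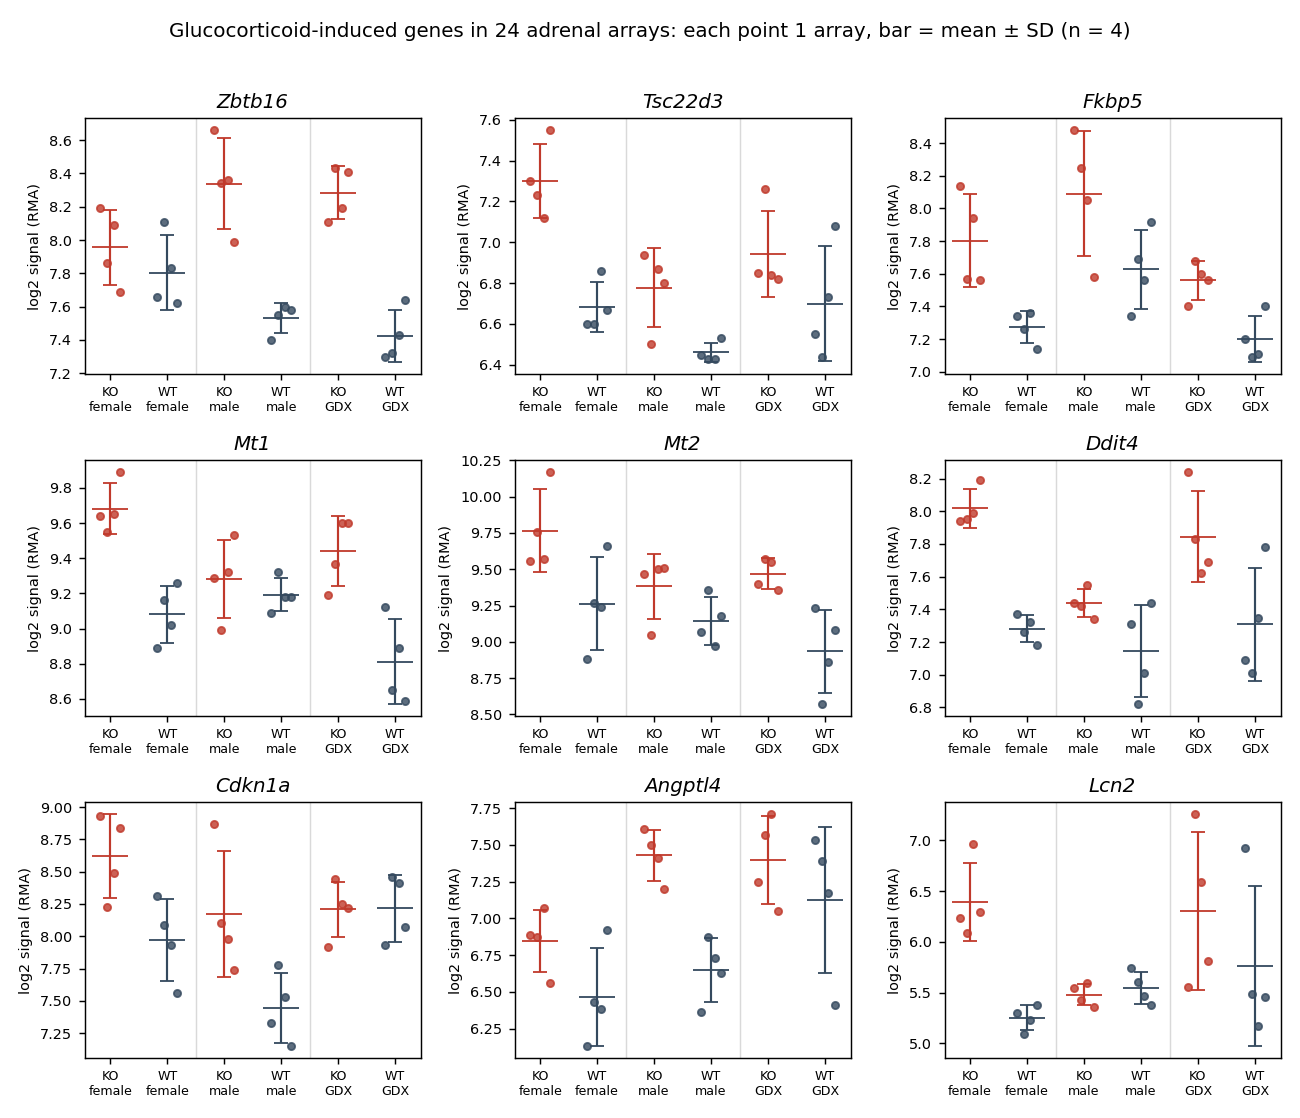
Log2 RMA signal of each of the 9 genes in the 24 arrays (vertical axis, 1 scale per panel; groups of 4 arrays side by side, KO left of WT). Points are single arrays and bars are the mean ± SD; the KO and WT arrays of Zbtb16 stand apart in intact and GDX males but overlap in females, and those of Lcn2 stand apart in females alone.

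A first set of genes acts on transcription or on the receptor itself. Zbtb16 (chr9:48651797-48836225, GRCm38.p6, as for the genes below) encodes a zinc finger repressor (PLZF). It rose in both male comparisons. Zbtb16 stood at 8.66, 8.34, 8.36 and 7.99 in KO intact males, against 7.40, 7.55, 7.60 and 7.58 in WT intact males, and at 8.11, 8.43, 8.19 and 8.41 in KO GDX males, against 7.30, 7.32, 7.43 and 7.64 in WT GDX males. Every KO male array lay above every WT array of its pair. The change was 0.81 ± 0.13 in intact males (1.75-fold, adjusted p = 0.0103, rank 6 by p among all genes) and 0.86 ± 0.13 in GDX males (1.82-fold, adjusted p = 0.0011). In intact males the call rested on array 1 of the KO group: without it the change was 0.70 with an adjusted p of 0.0686, and 0 of the 9 genes were called. With the 2 intact male groups fitted alone its adjusted p was 0.107. In females Zbtb16 stood at 8.19, 7.86, 8.09 and 7.69 in KO, against 7.66, 8.11, 7.83 and 7.62 in WT. These groups overlap, and the change was 0.16 (95% interval -0.12 to 0.43, adjusted p = 0.404).

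Tsc22d3 (chrX:140539528-140600522) encodes GILZ, a leucine zipper protein that carries part of the anti-inflammatory action of glucocorticoids. Of the 3 comparisons of KO with WT it passed the test in that of females. Tsc22d3 stood at 7.30, 7.23, 7.12 and 7.55 in KO females, against 6.60, 6.60, 6.86 and 6.67 in WT females, with no overlap and a change of 0.61 ± 0.13 (1.53-fold, adjusted p = 0.000799). In intact males it stood at 6.94, 6.50, 6.87 and 6.80 in KO, against 6.45, 6.43, 6.43 and 6.53 in WT; KO array 2 lay within the WT range and the change was 0.32 ± 0.13 (adjusted p = 0.546). In GDX males it stood at 6.85, 7.26, 6.84 and 6.82 in KO, against 6.55, 6.44, 6.73 and 7.08 in WT, which overlap (0.24 ± 0.13, adjusted p = 0.296). Whether these changes differ between females and intact males was tested directly, and the difference of 0.30 did not pass (adjusted p = 0.278).

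Fkbp5 (chr17:28398753-28486149) encodes FKBP51, a co-chaperone that holds the receptor in a state of low affinity for its hormone and is itself induced by it. Fkbp5 stood at 8.14, 7.57, 7.94 and 7.56 in KO females, against 7.34, 7.26, 7.36 and 7.14 in WT females. The groups did not overlap and it rose by 0.52 ± 0.16 (1.44-fold, adjusted p = 0.0134). Without KO female array 1 the change was 0.41 with an adjusted p of 0.0573. In intact males Fkbp5 stood at 8.48, 8.25, 8.05 and 7.58 in KO, against 7.34, 7.69, 7.56 and 7.92 in WT. KO array 4 lay inside the WT range and the change was 0.46 ± 0.16 (unadjusted p = 0.00736, adjusted p = 0.446 by limma over all genes). In GDX males it stood at 7.40, 7.68, 7.60 and 7.56 in KO, against 7.20, 7.09, 7.11 and 7.40 in WT, with no overlap before rounding; the change was 0.36 ± 0.16 (adjusted p = 0.195).

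Mt1 and Mt2 encode metallothioneins, small proteins that bind zinc and copper and are induced by glucocorticoids and metals. The genes lie 5315 bases apart on chromosome 8 (Mt1 chr8:94178883-94180327, Mt2 chr8:94172618-94173567, GRCm38.p6). Mt1 stood at 9.64, 9.55, 9.65 and 9.89 in KO females, against 8.89, 9.16, 9.02 and 9.26 in WT females, a rise of 0.60 ± 0.12 (1.52-fold, adjusted p = 0.00089) with no overlap. It stood at 9.19, 9.37, 9.60 and 9.60 in KO GDX males, against 9.12, 8.65, 8.89 and 8.59 in WT GDX males, a rise of 0.63 ± 0.12 (1.54-fold, adjusted p = 0.00677), also with no overlap. With the 2 GDX groups fitted alone its adjusted p was 0.0816. In intact males the arrays overlapped, at 9.29, 8.99, 9.32 and 9.53 in KO against 9.09, 9.32, 9.18 and 9.18 in WT. There the change of Mt1 was 0.09, with a 95% interval of -0.17 to 0.35 (adjusted p = 0.941).

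Mt2 stood at 9.56, 9.76, 9.57 and 10.17 in KO females, against 8.88, 9.27, 9.24 and 9.66 in WT females. It rose by 0.50 ± 0.16 (1.42-fold, adjusted p = 0.0204), although WT array 4 lay above 2 of the KO arrays. The call did not hold without WT female array 1 (0.38, adjusted p = 0.0895) or without KO female array 4 (0.37, adjusted p = 0.0943). In GDX males Mt2 stood at 9.40, 9.57, 9.55 and 9.36 in KO, against 9.23, 8.57, 8.86 and 9.08 in WT. These groups did not overlap, but the change of 0.53 ± 0.16 missed the threshold (adjusted p = 0.0628; 0.0375 without WT GDX array 1). In intact males it stood at 9.47, 9.05, 9.50 and 9.51 in KO, against 9.07, 9.36, 8.97 and 9.18 in WT, which overlap (0.24, adjusted p = 0.803).

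Ddit4 and Cdkn1a restrain growth. Ddit4 (chr10:59949675-59951770) encodes REDD1, which inhibits the mTORC1 kinase complex. It stood at 7.94, 7.95, 7.99 and 8.19 in KO females, against 7.37, 7.26, 7.32 and 7.18 in WT females. The groups were far apart relative to their spread, with SDs of 0.12 in KO and 0.08 in WT, and Ddit4 rose by 0.73 ± 0.15 (1.66-fold, adjusted p = 0.000802). In GDX males it stood at 8.24, 7.83, 7.62 and 7.69 in KO, against 7.09, 7.01, 7.35 and 7.78 in WT; WT array 4 lay above 2 KO arrays. The change of 0.54 ± 0.15 (1.45-fold) had an adjusted p of 0.0445, which became 0.116 with the array number as a block, and the call did not hold in 7 of the 8 fits that left out 1 GDX array (adjusted p up to 0.147). In intact males Ddit4 stood at 7.44, 7.42, 7.55 and 7.34 in KO, against 7.31, 6.82, 7.01 and 7.44 in WT (0.29, adjusted p = 0.702).

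Cdkn1a (chr17:29090979-29100722) encodes p21, an inhibitor of cyclin-dependent kinases. Cdkn1a stood at 8.93, 8.23, 8.49 and 8.84 in KO females, against 8.31, 8.09, 7.93 and 7.56 in WT females. KO array 2 lay under WT array 1, and the gene rose by 0.65 ± 0.21 (1.57-fold, adjusted p = 0.0228). The call did not hold without WT female array 4 (0.51, adjusted p = 0.0843), KO female array 1 (0.55, adjusted p = 0.0748) or KO female array 4 (0.58, adjusted p = 0.0694). In intact males it stood at 8.87, 8.10, 7.98 and 7.74 in KO, against 7.33, 7.78, 7.53 and 7.15 in WT; the change of 0.72 ± 0.21 had an unadjusted p of 0.00275 and an adjusted p of 0.304 by limma. In GDX males the groups lay together, at 7.92, 8.44, 8.25 and 8.22 in KO against 7.93, 8.46, 8.41 and 8.07 in WT (-0.01, 95% interval -0.45 to 0.43). The change of Cdkn1a in GDX males minus that in intact males was -0.73 ± 0.30 (unadjusted p = 0.0242, adjusted p = 0.436 by limma).

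The last pair of genes encode secreted proteins. Angptl4 (chr17:33774900-33781575) encodes an inhibitor of lipoprotein lipase that glucocorticoids and fasting induce in fat and liver. Its KO and WT arrays stood apart in intact males, at 7.61, 7.50, 7.41 and 7.20 in KO against 6.36, 6.87, 6.73 and 6.63 in WT. That change of 0.78 ± 0.20 (1.72-fold) was rank 64 by p among all genes and missed the threshold (unadjusted p = 0.000902, adjusted p = 0.198 by limma). In females Angptl4 stood at 6.89, 6.87, 7.07 and 6.56 in KO, against 6.13, 6.43, 6.38 and 6.92 in WT (0.38, 95% interval -0.04 to 0.80, adjusted p = 0.157). In GDX males it stood at 7.25, 7.57, 7.71 and 7.05 in KO, against 7.53, 7.39, 7.17 and 6.41 in WT (0.27, adjusted p = 0.504). Angptl4 passed the test in 0 of the 3 comparisons of KO with WT.

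Lcn2 (chr2:32384637-32387739) encodes lipocalin 2, which binds iron-carrying siderophores and is also a granule protein of neutrophils. It had the largest rise of the 9 genes in females and the widest spread in GDX males. Lcn2 stood at 6.23, 6.09, 6.96 and 6.29 in KO females, against 5.30, 5.09, 5.23 and 5.38 in WT females, a rise of 1.14 ± 0.32 (2.21-fold, adjusted p = 0.00875) with no overlap. In GDX males it stood at 5.55, 7.26, 6.59 and 5.81 in KO, against 6.93, 5.49, 5.17 and 5.46 in WT. There KO arrays 2 and 3 and WT array 1 were high and the others low, and the change of 0.54 ± 0.32 did not pass (adjusted p = 0.369). In intact males it stood at 5.54, 5.43, 5.59 and 5.36 in KO, against 5.74, 5.60, 5.47 and 5.38 in WT (-0.06, 95% interval -0.73 to 0.60).

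Markers of other cell types moved with some of these results. Beside them, limma called 13.9% of all genes higher and 18.7% lower in females. In females the mean of the 12 macrophage markers per array was 7.49 to 8.49 in KO, against 7.02 to 7.36 in WT, and 4 of the 12 rose. Of the 12 neutrophil markers 3 were bright enough to test, and 2 of these rose in KO females (Csf3r 0.40 and Cxcr2 0.37). The defining neutrophil genes S100a8, S100a9, Ly6g, Camp, Ngp, Retnlg and Mmp8 passed 5 in 0 of the 24 arrays. The mean of the 3 tested was 5.30 to 5.70 in KO females, against 5.03 to 5.29 in WT females. Around the group means, Lcn2 followed the macrophage markers with r = 0.56 and the neutrophil markers with r = 0.57 over 24 arrays, as a description; both values of a point come from the RNA of 1 array. Lcn2 also followed the capsule markers (r = 0.51), and Angptl4 followed the macrophage (0.56) and neutrophil markers (0.50). The SD of Lcn2 was 0.78 in KO and 0.79 in WT GDX males, and 0.10 to 0.39 in the other groups. The part of macrophages and neutrophils in the values of Lcn2 was not tested.

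Fat, medulla, capsule, zona glomerulosa and X-zone markers also differed in females. The mean of the 9 adipocyte markers was 7.74 to 8.52 in KO females, against 8.95 to 9.86 in WT females, with 6 of 9 fallen. The mean of the 10 medulla markers was 8.86 to 9.43 in KO females, against 9.51 to 9.91 in WT females, with 8 of 10 fallen, and the mean of the 9 glomerulosa markers was 7.52 to 7.90, against 9.18 to 9.53, also with 8 fallen. The mean of the 10 capsule markers was 6.92 to 7.18 in KO females, against 7.78 to 7.95 in WT females, with 8 of 10 fallen. The mean of the 4 tested markers of the X-zone, a transient inner zone of the mouse cortex, was 9.82 to 9.93 in KO females, against 8.67 to 9.03 in WT females, with 2 of 4 risen. In intact males limma called 1 gene of these 5 lists, Akr1c18 of the X-zone; the adipocyte mean was 7.86 to 9.16 in KO and 8.37 to 9.58 in WT, and the medulla mean 9.97 to 10.22 in KO and 9.62 to 10.02 in WT. Around the group means Cdkn1a followed the adipocyte markers (r = 0.74), and with their mean as a covariate its change in intact males passed the test (0.86, adjusted p = 0.0196). With the adipocyte mean as a covariate 4 of the 9 genes rose in females, namely Mt1, Cdkn1a (1.39), Fkbp5 and Tsc22d3. In that fit Mt2 (0.29, adjusted p = 0.412), Ddit4 (0.57, adjusted p = 0.0689) and Lcn2 (0.89, adjusted p = 0.187) no longer passed. With the medulla mean as a covariate 5 of the 9 rose in females, and Mt2 (0.56, adjusted p = 0.0701) and Cdkn1a (0.43, adjusted p = 0.3) no longer passed, so the call of Cdkn1a held with 1 of these covariates and not with the other. The marker means and the genotype overlap strongly in females, and the share of all genes called in these fits is not given here. The part of the capsule, glomerulosa and X-zone markers was not tested.

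Between the sexes 6 of the 9 genes differed in KO glands. Prkar1a itself was also lower in KO females than in KO intact males (-0.81 ± 0.23, limma adjusted p = 0.00596), with overlap. The part of this difference in the 6 calls was not tested. In KO females against KO intact males 4 of the 9 were higher and 2 lower, where the test called 41% of all genes, 17.8% higher and 23.1% lower. Higher in KO females were Ddit4 (0.58 ± 0.15, adjusted p = 0.00372), Tsc22d3 (0.52 ± 0.13, adjusted p = 0.00219), Mt1 (0.40 ± 0.12, adjusted p = 0.0131) and Lcn2 (0.91 ± 0.32, adjusted p = 0.0259), each without overlap between the arrays listed above. Lower were Zbtb16 (-0.38 ± 0.13, adjusted p = 0.0257), with overlap, and Angptl4 (-0.58 ± 0.20, adjusted p = 0.026), without. The calls of Mt1, Lcn2, Zbtb16 and Angptl4 were each lost on leaving out 1 array. For Mt1 these were KO female array 4 (adjusted p = 0.0551) and KO male array 2 (0.066), and for Lcn2 KO female array 3 (0.092) and KO male arrays 2 (0.0529) and 4 (0.0551). For Zbtb16 they were KO female arrays 2 (0.0672) and 4 (0.106) and KO male arrays 1 (0.113) and 3 (0.0537), and for Angptl4 KO female array 4 (0.0892) and KO male arrays 1 (0.0702) and 2 (0.0583). Without KO female array 4 or KO male array 2 the count of the 9 called was 3. Ddit4 and Tsc22d3 passed in all 8 of these fits. Leaving out 1 array also brought 3 genes past the threshold: Mt2 without KO female array 1 (adjusted p = 0.0458) or 3 (0.0459), Cdkn1a without KO female array 2 (0.0445) or KO male array 1 (0.00731), and Fkbp5 without KO male array 4 (0.0136). With the medulla mean as a covariate 0 of the 9 passed in KO females against KO intact males; that mean was 8.86 to 9.43 in KO females, against 9.97 to 10.22 in KO intact males. The ranges do not overlap, so this fit cannot separate the medulla mean from sex. The share of all genes called in it is not given here. Of the other markers in this comparison, 9 of 10 endothelial, 7 of 10 capsule, 8 of 9 glomerulosa and 4 of 9 adipocyte genes were lower in KO females, and 4 of 12 macrophage and 4 of 4 X-zone genes higher; their part in the 6 calls was not tested.

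In WT females against WT intact males 0 of the 9 passed limma's test, where 7.75% of all genes were called. At an unadjusted p under 0.05 there were 2 of the 9 (21.9% of all genes): Cdkn1a, higher in females (0.52 ± 0.21, adjusted p = 0.143), and Fkbp5, lower in females (-0.35 ± 0.16, adjusted p = 0.194). Without overlap before rounding, 2 of the 9 lay above the WT intact males (978 of all 14411 genes) and 1 below (1205 of all). Those above were Zbtb16 (0.27 ± 0.13, limma adjusted p = 0.237) and Tsc22d3 (0.22 ± 0.13, adjusted p = 0.319). Lcn2 lay below (-0.30 ± 0.32, adjusted p = 0.647). These 2 comparisons between the sexes use arrays that the KO comparisons use too. The change with Prkar1a loss in females minus that in intact males was therefore tested directly, where sex and control genotype cannot be told apart. It passed for Zbtb16, whose change in females was smaller by 0.65 (-0.65 ± 0.19, 95% interval -1.04 to -0.26, adjusted p = 0.0226); 16% of all genes passed this test and 8.78% in that direction. Without WT female array 2 the adjusted p was 0.0534, without KO female array 4 it was 0.0556 and without WT male array 1 it was 0.0509. It was 0.332 with the medulla mean and 0.167 with the adipocyte mean as a covariate. Lcn2 (1.21 ± 0.45, adjusted p = 0.0712) and Mt1 (0.51 ± 0.18, adjusted p = 0.0518) had larger changes in females but missed the threshold; Mt1 passed without WT female array 4 (0.57, adjusted p = 0.0399) or KO male array 4 (0.59, adjusted p = 0.0288). For Fkbp5 (0.06) and Cdkn1a (-0.07) the difference was near 0.

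Gonadectomy moved few of the genes. In WT GDX males against WT intact males Cdkn1a rose by 0.77 ± 0.21 (1.70-fold, adjusted p = 0.0403), at 7.93 to 8.46 in GDX against 7.15 to 7.78 in intact males, without overlap. It was the only 1 of the 9 called, where 4.5% of all genes were called and 1.94% were higher. That call did not hold in 6 of the 8 fits that left out 1 of these arrays, with the highest adjusted p, 0.142, without WT intact male array 4. Nor did the call hold with the array number as a block, with no filter on dim genes or with the compared groups fitted alone. The adipocyte mean was 8.94 to 10.38 in WT GDX males, against 8.37 to 9.58 in WT intact males, and its part was not tested beyond a covariate fit (0.52, adjusted p = 0.0713). At an unadjusted p under 0.05 by limma there were 4 of the 9 in WT, against 2565 of all 14411 genes. Beside Cdkn1a they were Mt1 (-0.38 ± 0.12, adjusted p = 0.0856), Angptl4 (0.48 ± 0.20, adjusted p = 0.209) and Fkbp5 (-0.43 ± 0.16, adjusted p = 0.129). In KO GDX males against KO intact males Fkbp5 fell by 0.53 ± 0.16 (adjusted p = 0.0251), at 7.40 to 7.68 in GDX against 7.58 to 8.48 in intact males, where 15.4% of all genes were called and 8.59% were lower. In the same comparison 6 of 10 endothelial markers fell (mean 8.15 to 8.31 in GDX, against 8.38 to 8.64 in intact males), as did 3 of 10 medulla, 3 of 9 glomerulosa and 2 of 10 capsule markers, while 4 of 4 X-zone and 2 of 9 adipocyte markers rose. Around the group means Fkbp5 followed the endothelial markers with r = 0.50 over 24 arrays; their part in its fall was not tested, beyond a fit with the medulla mean (-0.41, adjusted p = 0.131). The call of Fkbp5 did not hold in 6 of the 8 fits that left out 1 of these arrays; without KO intact male array 1 the change was -0.40 with an adjusted p of 0.0888. Leaving out 1 array also brought Angptl4 (0.72, adjusted p = 0.0267, without GDX array 4) and Mt1 (-0.49, adjusted p = 0.0267, without GDX array 1) past the threshold in WT, and Lcn2 in KO (1.07, adjusted p = 0.0239, without GDX array 1). Ddit4 stood at 7.62 to 8.24 in KO GDX males, above the 7.34 to 7.55 of KO intact males, with a change of 0.41 that missed the threshold (adjusted p = 0.0695). For the change with Prkar1a loss in GDX minus that in intact males, limma called 0 of the 9 (0.0278% of all genes) and 2 at an unadjusted p under 0.05 (9.44%), Mt1 (0.54 ± 0.18) and Cdkn1a. For Fkbp5 this difference was -0.10 ± 0.22 (adjusted p = 0.941).

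Ordered by group mean, the 6 groups of a gene seldom stood clear of their neighbours. Of the 45 neighbouring pairs in these orders, 33 had a gap smaller than the larger of the SDs and 4 had no overlap. KO females had the highest mean of Tsc22d3 (7.30 ± 0.18), Mt1 (9.68 ± 0.14), Mt2 (9.76 ± 0.28), Ddit4 (8.02 ± 0.12), Cdkn1a (8.62 ± 0.32) and Lcn2 (6.39 ± 0.39). KO intact males had the highest mean of Zbtb16 (8.34 ± 0.28), Fkbp5 (8.09 ± 0.38) and Angptl4 (7.43 ± 0.17), each the SD of n = 4. Zbtb16 had its lowest mean in WT GDX males (7.43 ± 0.16) and Tsc22d3 in WT intact males (6.46 ± 0.05).

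Put on 1 scale, with each gene centred and divided by its SD over 24 arrays, the mean of the 9 genes was 0.01 to 1.06 in the 12 KO arrays and -0.91 to -0.27 in the 12 WT arrays. The ranges were 0.56 to 1.06 in KO females against -0.77 to -0.46 in WT females, 0.01 to 0.86 in KO intact males against -0.88 to -0.51 in WT intact males, and 0.21 to 1.05 in KO GDX males against -0.91 to -0.27 in WT GDX males. Per array, 4 to 9 of the 9 genes lay above their 24-array median in KO glands and 0 to 3 in WT glands. The score describes these arrays and was not tested, since the genes were chosen with earlier results known.

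**Figure D3:**
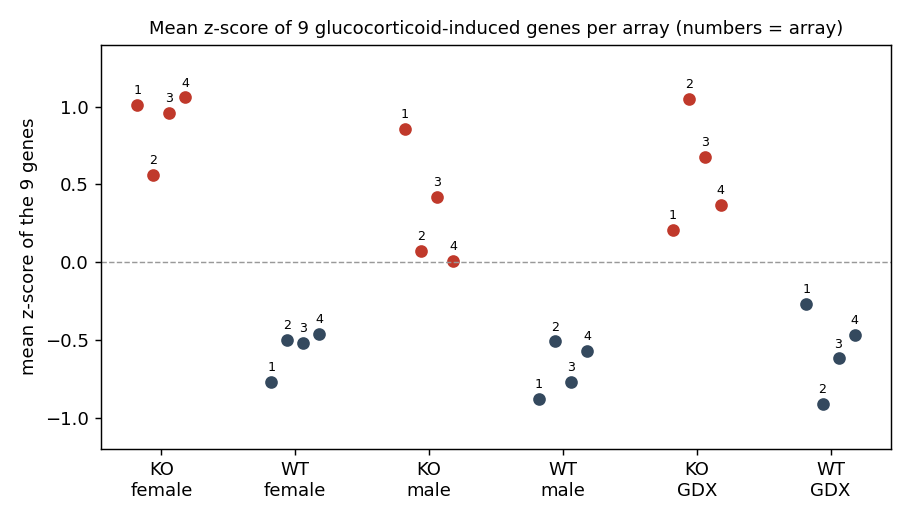
Mean z-score of the 9 genes in each array (vertical axis, SD units; points are arrays, numbered within their group, with KO left of WT). The KO arrays lie at 0.01 to 1.06 and the WT arrays at -0.91 to -0.27; KO intact male array 1 is the highest of its group, at 0.86.

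With 9 genes and 4 arrays, some array of each group must be the highest for several genes. The largest counts were in the KO male groups. In KO females and in each WT group no array was the highest for more than 4 genes. Among KO intact males, array 1 was the highest of the 4 for 5 genes (Zbtb16, Tsc22d3, Fkbp5, Cdkn1a and Angptl4) and array 4 the lowest for 6. Among KO GDX males, array 2 was the highest for 6 and array 1 the lowest for 5.

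Over all 24 arrays the 36 pairs of genes had a Pearson's r of 0.04 to 0.86, with a median of 0.42 and every r positive. The differences between groups are part of these values, so the deviations from the 6 group means were also compared. There r ran from -0.66 to 0.77 with a median of 0.06, 24 pairs positive and 12 negative. The closest pair around the group means was Zbtb16 with Fkbp5 (0.77), followed by Mt1 with Mt2 (0.67). Ddit4 with Tsc22d3 had 0.84 over the arrays and 0.52 around the group means. Ddit4 with Angptl4 was the most opposed, at 0.04 over the arrays and -0.66 around the group means. Each r rests on 24 arrays and describes them.

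**Figure D4:**
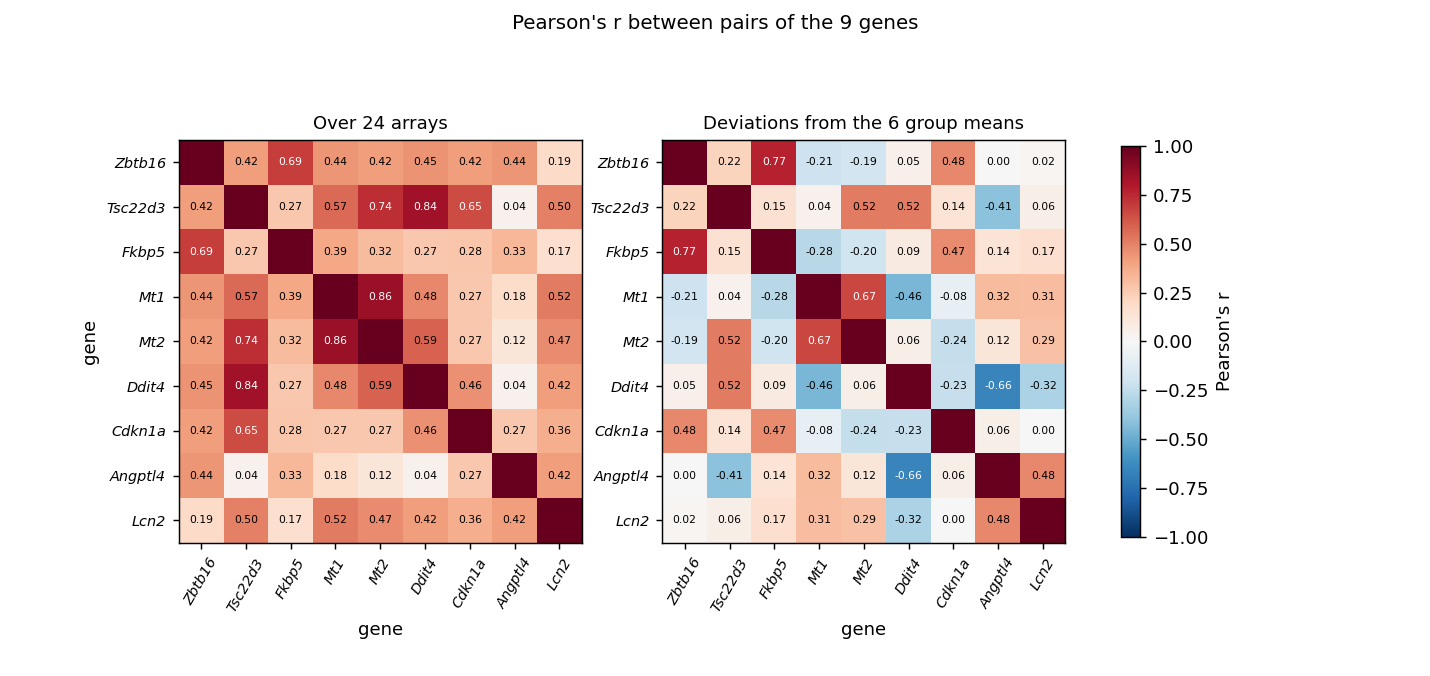
Pearson's r between each pair of the 9 genes (colour scale and number in each cell, no units; the diagonal is each gene with itself). The left panel uses the 24 arrays and ranges over 0.04 to 0.86; the right panel uses deviations from the 6 group means and ranges over -0.66 to 0.77.

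Other genes of the pathway were counted in a list of 32 further glucocorticoid-induced genes, of which 31 were in the table and 29 bright enough to test. In KO females 6 of the 29 rose and 3 fell, with a median change of 0.05, where 13.9% of all genes were called higher and 18.7% lower. Glul, glutamine synthetase, rose by 0.72 ± 0.12 (adjusted p = 0.000116), the clock gene Per1 by 0.54 ± 0.17 (adjusted p = 0.018) and the transcription factor Cebpb by 0.49 ± 0.17 (adjusted p = 0.0366). Rgs2, a regulator of G protein signalling, fell by 0.94 ± 0.27 (adjusted p = 0.0115). In intact males 1 of the 29 rose, where 0.0694% of all genes were higher, with a median of 0.11, and in GDX males 1 rose, where 2.26% were higher, with a median of 0.09. Neither male comparison had a call among the 29 in the other direction. The gene that rose was Fam107a both times, with a change of 0.48 ± 0.09 (adjusted p = 0.0194) among intact males and of 0.35 ± 0.09 (adjusted p = 0.0253) among GDX males. In females its change was 0.17 ± 0.09 (adjusted p = 0.149), so Fam107a, like Zbtb16, passed in both male comparisons and not in females; whether its change differs between the sexes was tested, with a difference of -0.32 (adjusted p = 0.0788). Sgk1 and Klf9, also widely used indicators of the receptor and chosen for mention after their values were seen, had changes of 0.16 (adjusted p = 0.172) and -0.28 (adjusted p = 0.0174) in females. At an unadjusted p under 0.05 by limma, 7 of the 29 passed in intact males, all higher, against 4.18% of all genes higher. In GDX males 6 passed, of which 4 were higher, against 8.94% of all genes higher. Above 0 were 22 of the 29 in each male comparison and 17 in females, beside 46% to 46.8% of all genes. Since the 9 genes were chosen with earlier results of these arrays known, their larger median says nothing about the class of genes.

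**Figure D5:**
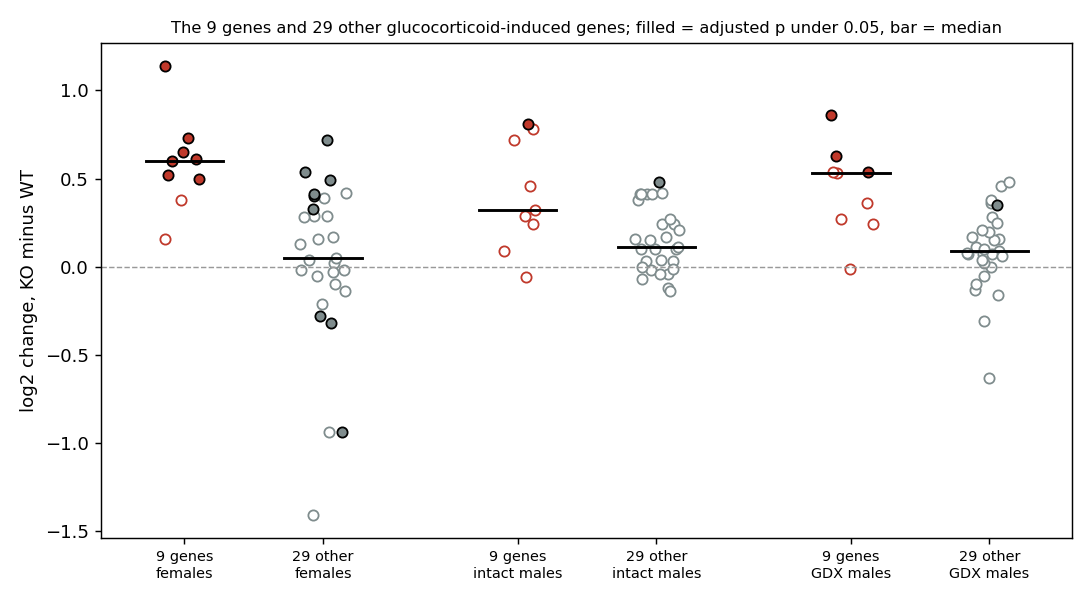
Log2 change, KO minus WT, of the 9 genes (red) and of 29 other glucocorticoid-induced genes (grey) in females, intact males and GDX males (vertical axis, log2 units; each point 1 gene, placed sideways at random). Filled points passed an adjusted p of 0.05 and bars are medians; the medians of the 9 genes are 0.6, 0.32 and 0.53, those of the 29 genes 0.05, 0.11 and 0.09.

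The receptor gene itself fell in KO females and in KO GDX males. Nr3c1 stood at 7.76, 7.58, 7.66 and 7.84 in KO females, against 8.21, 8.05, 8.11 and 7.94 in WT females, a fall of 0.37 (-0.37 ± 0.13, adjusted p = 0.0302) without overlap. It stood at 7.94, 7.95, 7.87 and 7.86 in KO GDX males, against 8.04, 8.49, 8.84 and 8.07 in WT GDX males, a fall of 0.46 (-0.46 ± 0.13, adjusted p = 0.0422), also without overlap. WT GDX arrays 2 and 3, both Prkar1a+/+ with Cre, lay furthest above the KO arrays. Fits that leave out 1 array were not run for Nr3c1. In intact males its change was -0.07 (adjusted p = 0.945). Of 10 tested genes for the receptor, its chaperones and co-activators, 2 fell in females, Nr3c1 and the co-activator Ncoa1 (-0.39 ± 0.07, adjusted p = 0.000186), and all 10 changes were below 0, with a median of -0.21; 18.7% of all genes were called lower there. Of 9 tested genes that glucocorticoids repress, 1 rose in females, the adhesion molecule Vcam1 (0.98 ± 0.26, adjusted p = 0.00583), where 13.9% of all genes were called higher. In either male comparison limma called 0 of the 9. In each, 1 of the 9 was higher at an unadjusted p under 0.05, beside 4.18% of all genes in intact males and 8.94% in GDX males.

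Other targets of the regulators that share these 9 genes were counted in the same way. Of all genes tested, limma called 13.9% higher and 18.7% lower in females, and 2.26% higher and 1.97% lower in GDX males. In intact males it called 0.0694% higher and 0.0416% lower. Of 7 genes of the zinc and metal response other than Mt1 and Mt2, 1 rose in KO females (Gclc, 0.39, adjusted p = 0.00415). Of 10 p53 targets other than Cdkn1a, 4 rose and 2 fell in females (Trp53inp1 0.70, Phlda3 -0.59), and 1 rose in GDX males (Mdm2, 0.36, adjusted p = 0.00517). Of 7 PPAR targets other than Angptl4, Cpt1a, the mitochondrial carnitine acyltransferase, rose by 1.02 in females (adjusted p = 1.81e-06) and by 0.53 in GDX males (adjusted p = 0.0133). Fabp4, a gene of fat cells, fell in females (-1.69). Of 12 hypoxia and ATF4 targets other than Ddit4, 1 rose and 4 fell in females, among them Egln3 (-1.23) and Ddit3 (-0.62), and Ddit3 alone fell in GDX males (-0.43). Of 9 acute phase and STAT3 targets other than Lcn2, 2 rose in females (Pim1 0.86, Stat3 0.39) and 1 fell (Steap4 -1.08). Of 14 cAMP targets, 2 rose and 2 fell in females, Sik1 with 1.19 and Ppargc1a with -1.16. Intact males had 0 calls in these lists but for Inha, a cAMP target (0.77).

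The genes of corticosterone synthesis gave their own count beside these. Of 10 genes of the zona fasciculata and steroid synthesis, 6 rose in KO females, 3 in KO GDX males and 0 in KO intact males. The test called 13.9% of all genes higher in females, 2.26% in GDX males and 0.0694% in intact males. Scarb1, the receptor that takes up cholesterol from HDL, rose by 0.93 in females and 0.78 in GDX males, and Mrap, which carries the ACTH receptor to the cell surface, by 1.21 and 0.76. The mean signal of the 10 per array was 11.90 to 12.01 in KO females, against 11.54 to 11.64 in WT females. It was 11.80 to 11.90 in KO GDX males, against 11.51 to 11.72 in WT GDX males, and 11.61 to 11.72 in KO intact males, against 11.52 to 11.75 in WT intact males.

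The genes whose signals over the 24 arrays were most alike the mean z-score of the 9, by Pearson's r, were Rnf220 (0.90), Shank2 (0.88), Slc3a2 (0.88), Nxph1 (0.87) and Mllt11 (0.86). Slc3a2 encodes the heavy chain of a family of amino acid transporters; its group mean was 10.52 in KO females and 9.53 in WT females, 9.76 in KO intact males and 9.52 in WT intact males, and 10.15 in KO GDX males and 9.63 in WT GDX males. Nxph1, a secreted ligand of neurexins, spanned the widest range, with a mean of 8.90 in KO females and 5.57 in WT females, 6.36 in KO intact males and 4.94 in WT intact males, and 7.15 in KO GDX males and 5.32 in WT GDX males. Arrays of a group share its difference from the others, so these r rest on fewer independent points than 24.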

How the data were processed

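RNA of whole mouse adrenal glands (500 ng of total RNA per array, per the labels' protocols) was measured on 24 arrays, 4 in each of 6 groups that GEO's labels give. The deposited values are log2 signals, normalized with RMA per the submitters' processing notes; its software is named in none of the sources used here. RMA sets all arrays to 1 distribution, so a shift shared by most genes would not show. Of 32202 probe sets 22943 carried 1 gene symbol in the platform annotation, 1731 several and 7528 none. Each gene took the probe set with the highest mean, and 14411 of 21957 genes passed the filter. Limma 3.58.1 (R 4.3.3; lmFit and eBayes) fitted 6 group means over all arrays, with 18 residual and 3.41 prior degrees of freedom, 9 contrasts and Benjamini-Hochberg adjustment over all genes tested. Changes are log2 ± SE, and lists are described by counts. The script was tested on simulated data. The labels call the arrays biological replicates.

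Arrays of the same number deviated together in KO and WT GDX males (Pearson's r of 0.12 to 0.24 in 4 pairs). In WT GDX and WT intact males the r was similar, at 0.09 to 0.24. In each other comparison the lowest r was negative (down to -0.24, in GDX against intact KO males). The labels state no pairing, and an alternative with the array number as a block was run for every comparison. The 9 genes and all 19 gene lists were chosen with earlier results of these data known. Named genes are the 9, Prkar1a, up to 4 called genes with the largest change per list and comparison, and the 5 genes most alike the mean of the 9. Sgk1 and Klf9 were named after their values were seen, as were Th, Dab2 and the neutrophil genes too dim to test, which serve as checks of tissue and cell types. Other settings of filter, probe set choice, normalization, variance model, array weights, covariates and arrays are given at the end. Positions and promoter windows come from RefSeq, GRCm38.p6; no source used here names the build behind the probe sets.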

Additional observations from a re-analysis of the deposited data

Results flagged for a closer look

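Of 54 sets of 4 arrays (9 genes in 6 groups), 2 held an array that stood apart by Dixon's test; chance alone flags about 1 set in 20. Mt2 in KO intact male array 2 was 9.05, under the 9.47 to 9.51 of the other arrays of its group (ratio of gap to range 0.917). Tsc22d3 in KO GDX male array 2 was 7.26, above the 6.82 to 6.85 of the other arrays of its group (ratio 0.915).

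The change of Zbtb16 with Prkar1a loss differed between females and intact males by -0.65 on the log2 scale (limma adjusted p = 0.0226), with 0.16 in females and 0.81 in intact males. Of the 9 genes it alone passed this test in the fit over all arrays. The control genotypes of females and intact males also differed, and their part cannot be told apart from that of sex.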

How the results depend on the processing

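Of the 20 called changes of the 9 genes, 3 passed under every alternative run (Mt1 and Tsc22d3 in females, Zbtb16 in GDX males, KO against WT), and 0 reversed under any. The share of all genes called under each alternative is not given here, so the counts below describe the 9 genes alone. The number of the 9 genes called moved by over 1.5 times as follows; the cause was not tested. With no filter on dim genes it was 0 for GDX against intact WT males. With the stricter filter, and with trended robust variances, it was 2 for the change in females minus that in intact males. With the compared groups fitted alone, which leaves fewer arrays, it was 0 for KO against WT intact males, 1 for KO against WT GDX males, 0 for GDX against intact males in KO and in WT, and 3 for females minus intact males. With array weights it was 2 for GDX against intact KO males and 3 for females minus intact males. With the medulla covariate it was 0 for KO against WT intact males, for females against intact males in KO, for GDX against intact KO males and for females minus intact males. With the adipocyte covariate it was 4 for KO against WT females, 2 for KO against WT intact males, 0 for GDX against intact WT males and 0 for females minus intact males. With the replicate block it was 0 for GDX against intact WT males and 2, against 3 without the block, for KO against WT GDX males, where Ddit4 (0.54, adjusted p = 0.116) lost its call; the block ended no other call of KO against WT.

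Leaving out 1 array at a time gave 5 to 7 called in KO against WT females, 0 to 1 in intact males and 2 to 3 in GDX males, 3 to 7 in females against intact males in KO and 0 to 0 in WT, 0 to 1 in GDX against intact KO males and 0 to 2 in WT, 0 to 2 for females minus intact males and 0 to 0 for GDX minus intact males.

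Values that changed sign were all of changes that had not passed the test. Cdkn1a in KO against WT GDX males (-0.01) became 0.01 with a second quantile normalization and with the medulla covariate and 0.05 with the adipocyte covariate; in GDX against intact KO males it became -0.09 (medulla) and -0.29 (adipocyte), and in females minus intact males 0.53 (adipocyte). Fkbp5 became -0.02 in females minus intact males (array weights) and 0.08 in females against intact males in KO (medulla), and Zbtb16 became 0.01 in GDX against intact KO males (medulla). Leaving out 1 array at a time, the sign changed for Cdkn1a (-0.11 to 0.09 in KO against WT GDX males, -0.11 to 0.27 in GDX against intact KO males, -0.21 to 0.16 in females minus intact males), Fkbp5 (-0.11 to 0.19 in females minus intact males, -0.27 to 0.03 in GDX minus intact males) and Zbtb16 (-0.17 to 0.05 in GDX against intact KO males, -0.07 to 0.16 in GDX minus intact males). It also changed for Angptl4 (-0.14 to 0.08) and Mt2 (-0.02 to 0.13) in GDX against intact KO males, Mt2 in females against intact males in WT (-0.01 to 0.25), Lcn2 in GDX against intact WT males (-0.17 to 0.41) and Tsc22d3 in GDX minus intact males (-0.18 to 0.05). With 4 arrays a group, their number limits the precision.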
